A study of Homo sapiens with 24 samples.

Results

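The genes described here are 10 regulators and early products of lateral plate and heart-forming mesoderm, taken by gene symbol from the 28297 genes of the deposited table: HAND1, HAND2, GATA4, GATA5, GATA6, ISL1, NKX2-5, FOXF1, TNNT2 and MYL7. All 10 had a row of their own. They were followed in H9, an established human embryonic stem cell line, by sequencing of polyadenylated RNA in 24 libraries, 8 groups of 3. The design sets cells in which light turns on canonical Wnt signalling beside wild-type cells, grown apart or together.

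In monoculture, the Cry2 light group (engineered cells that carry a fusion of the photoreceptor Cry2 with the intracellular part of the Wnt co-receptor LRP6, followed by mCherry) received 0.8 µW/mm2 of light for 48 h, and the Cry2 dark group held the same cells without light. The wt light and wt dark groups held wild-type cells, which express eGFP, under the same conditions. In co-culture, engineered and wild-type cells grew mixed in equal parts under the same light or in the dark and were then sorted by flow cytometry: the mCherry light and mCherry dark groups are the engineered cells, and the GFP light and GFP dark groups are the wild-type cells. All groups grew in E8 medium, and each replicate pooled 2 to 3 wells. No source used here gives whether the engineered line is 1 clone or whether replicates came from separate cultures, so p-values measure the spread between these samples, which may be technical.

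Lateral plate mesoderm leaves the primitive streak and splits into a splanchnic layer, which gives rise to the heart and gut wall, and a somatic layer, which gives rise to the body wall and limb bed. GATA4, GATA5 and GATA6 are zinc finger factors that bind GATA motifs, HAND1 and HAND2 are basic helix-loop-helix factors of heart and limb, ISL1 marks second heart field progenitors, NKX2-5 marks committed heart progenitors, and FOXF1 is a forkhead factor of splanchnic mesoderm. TNNT2 (cardiac troponin T) and MYL7 (the atrial myosin regulatory light chain) are parts of the contractile sarcomere. GATA4, GATA6, HAND1 and ISL1 are also used in other early tissues, among them extraembryonic mesoderm, endoderm and amnion.

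Values are the authors' normalised reads, and depth ran from 28237578 to 56639833 assigned reads per library. In monoculture, depth coincided with light: the light libraries held 45763662 to 54707558 reads and the dark libraries 28237578 to 34291124. Of the monoculture libraries, wt dark replicate 1 had a low GC content (33.73%), and the lowest RNA integrity number, 7.6, was that of Cry2 dark replicate 3. The summed level of 6 pluripotency markers was 65640 to 85093 in the 6 illuminated engineered libraries and 223020 to 254879 in the other 18 libraries. The co-culture libraries are called a, b and c, since their columns carry no replicate number.

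Under light, engineered monocultures held far more RNA of GATA6, GATA4, HAND1, FOXF1 and ISL1 than in the dark, and far less of TNNT2. MYL7, NKX2-5 and GATA5 were higher by smaller folds (3.74, 4.39 and 9.87). HAND2 stayed at the edge of detection. A gene was tested where at least 3 libraries of the fit had a value of at least 10; limma was run on log2(value + 1) over all such features, and a gene was called at a Benjamini-Hochberg adjusted p under 0.05. Of the 9 genes that could be tested, 8 were called higher and 1 lower in Cry2 light than in Cry2 dark; over all features tested, 28.1% were called higher and 30.4% lower. The same 8 and 1 genes were called in mCherry light against mCherry dark, where 27.2% of all features were called higher and 28.7% lower. However, 7 of the 9 genes in monoculture and 6 of the 9 in co-culture passed the filter only through the illuminated engineered libraries, where they are high, so these counts describe the genes and support nothing about them as a group. The same limit holds for the median log2 change of the 9. It was 5.62 in Cry2 and 4.16 in mCherry cells, beside -0.01 over all features in each. In bulk RNA, fewer cells of a type and less RNA per cell cannot be told apart.

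**Figure D1:**
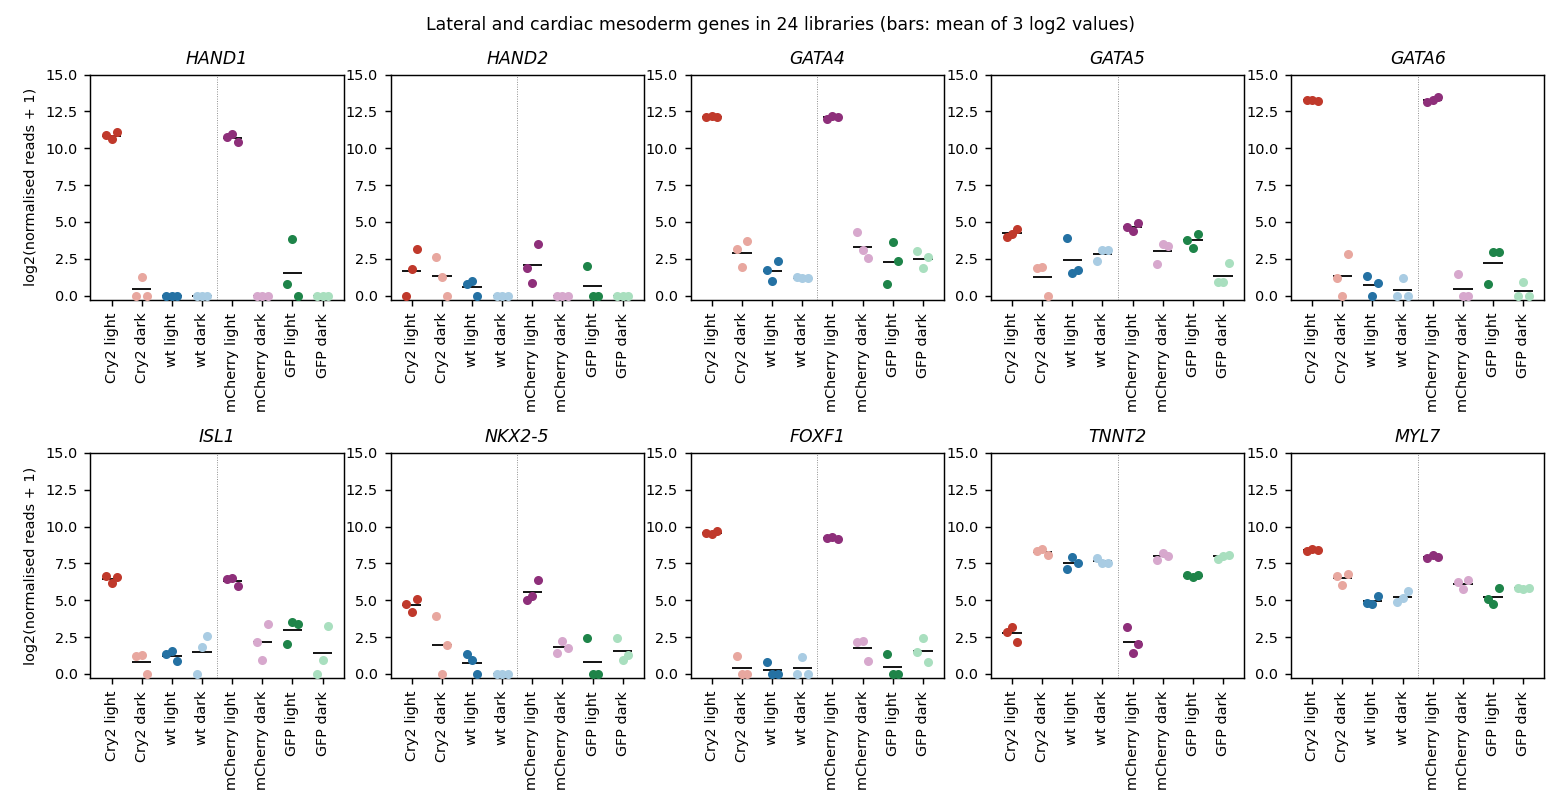
Normalised reads of the 10 genes in every library, as log2(value + 1), with the 4 monoculture groups left and the 4 co-culture groups right of the dotted line; points are libraries and bars are means of 3. The 6 illuminated engineered libraries stand above all others for HAND1, GATA4, GATA6, ISL1, NKX2-5, FOXF1 and MYL7 and below all others for TNNT2, while HAND2 stays at or below 10.5 normalised reads throughout.

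GATA6 was the most abundant of the 10. GATA6 (ENSG00000141448; GRCh38 chr18:22169443-22202528, plus strand) stood at 9918, 9911 and 9612 normalised reads in Cry2 light, against 1.31, 0 and 5.95 in Cry2 dark. The 3 light libraries lay within a few percent of each other, and no dark library came near them. It was 4056-fold higher in Cry2 light (log2 change 11.93 ± 0.60 standard error (SE), limma adjusted p = 1.34e-10). The fold rests on 5 dark reads: without Cry2 dark replicate 3 it was 14461, with an exact 95% counting interval of 2595 to 571200. In sorted co-culture cells GATA6 stood at 9197, 9718 and 11211 in mCherry light and at 1.71, 0 and 0 in mCherry dark. With only 2 reads in the dark group the ratio is loosely bounded: 17272-fold, with an exact 95% counting interval of 4781 to 142623. The log2 change was 12.81 ± 0.57 (limma adjusted p = 5.33e-11).

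GATA4, a partner of NKX2-5 and TBX5 in heart gene control (ENSG00000136574; chr8:11676959-11760002, plus strand), followed GATA6 at a lower level. It had 4442, 4673 and 4504 normalised reads in Cry2 light, against 7.83, 2.83 and 11.9 in Cry2 dark. It was 604-fold higher (log2 change 9.23 ± 0.44 SE, limma adjusted p = 7.14e-11). In co-culture it had 4025, 4666 and 4547 in mCherry light, against 18.8, 7.44 and 4.75 in mCherry dark, a 427-fold difference (log2 change 8.80 ± 0.59, limma adjusted p = 6.83e-09) that was 724-fold without mCherry dark library a. In both cultures the light and dark libraries did not overlap, and the dark engineered cells held a few reads of GATA4 in every library.

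GATA5, the third member of this subfamily (ENSG00000130700; chr20:62463497-62475970, minus strand), stayed low. It had 14.5, 17.0 and 22.2 normalised reads in Cry2 light, against 2.61, 2.83 and 0 in Cry2 dark, a 9.87-fold difference (log2 change 2.96 ± 0.67 SE, limma adjusted p = 0.00138). In co-culture it had 24.5, 19.4 and 30.1 in mCherry light, against 3.42, 10.2 and 9.49 in mCherry dark, a 3.20-fold difference (log2 change 1.65 ± 0.51, limma adjusted p = 0.0123). The groups did not overlap in either culture, but without mCherry dark library a the co-culture call was lost (log2 change 1.22, adjusted p = 0.066). Per kb of exon, GATA6 made up 68.6% and GATA4 28.2% of all reads of GATA1 to GATA6 in Cry2 light, and 69.4% and 27.2% in mCherry light, while GATA5 made up 0.191% in Cry2 light and 0.259% in mCherry light.

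**Figure D2:**
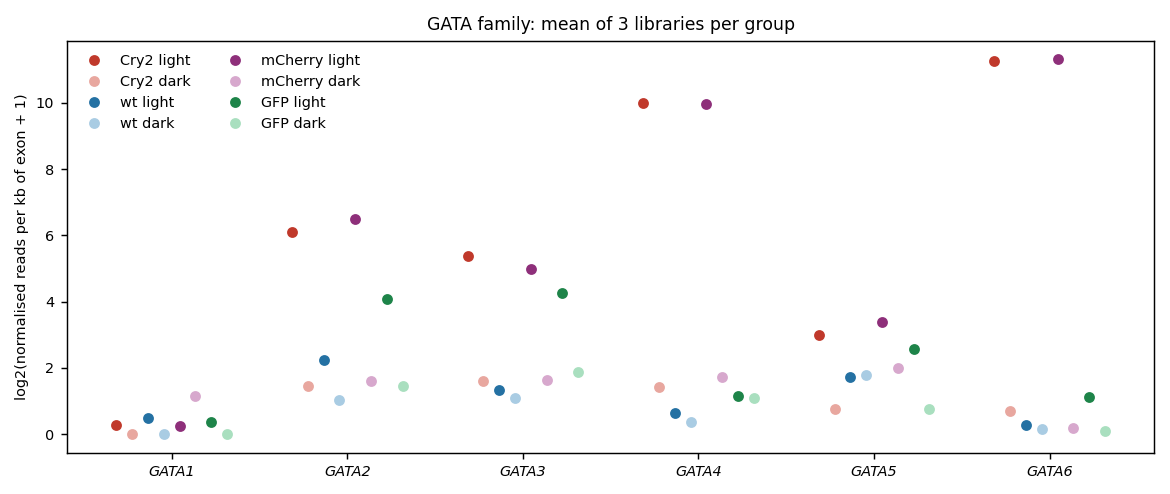
Level of the 6 GATA genes per kb of exon in each group, as log2(mean of 3 libraries + 1). GATA4 and GATA6 are high only in Cry2 light and mCherry light among the 8 groups, whereas GATA2 and GATA3 are raised in the illuminated engineered groups and, to a lesser level, in GFP light, where GATA2 averaged 71.3 and GATA3 62.5 normalised reads.

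The other GATA genes in the fit were GATA2 (known for blood and endothelial progenitors) and GATA3 (known for trophoblast, amnion and T cells). Both were called higher in Cry2 light, beside 28.1% of all features. In monoculture, 1 of the 2 passed the filter only through the illuminated engineered libraries. Both were also called higher in GFP light against GFP dark, beside 2.39% of all features. GATA2 averaged 303.9 ± 53.9 normalised reads in Cry2 light and 7.86 ± 7.13 in Cry2 dark (SD, n = 3 each; log2 change 5.48 ± 0.61 SE, limma adjusted p = 1.45e-06). GATA3 averaged 140.2 ± 23.5 in Cry2 light and 7.06 ± 9.72 in Cry2 dark (log2 change 4.84 ± 0.72, limma adjusted p = 3.22e-05). GATA1, the erythroid member, had 1 read in Cry2 light and was not tested.

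HAND1 and HAND2 are paralogues, and they stood far apart in level in the illuminated engineered cells. HAND1 (ENSG00000113196; chr5:154474972-154478264, minus strand), a factor of left ventricular, lateral plate and extraembryonic mesoderm, had 1893, 1560 and 2169 normalised reads in Cry2 light, against 0, 1.41 and 0 in Cry2 dark. The dark value is 1 read in all 3 libraries together, so the ratio of 3998-fold has an exact 95% counting interval of 717 to 157950. The log2 change was 10.44 ± 0.46 SE (limma adjusted p = 2.5e-11). In co-culture HAND1 had 1721, 1984 and 1391 in mCherry light and no read in mCherry dark. It was at least 1986-fold higher in mCherry light, taking a floor of 3 reads over the dark group (log2 change 10.72 ± 0.72, limma adjusted p = 6.57e-09).

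HAND2 (ENSG00000164107; chr4:173524969-173530229, minus strand), a factor of the right ventricle, limb and sympathetic neurons, did not reach the filter in any fit and was not tested. It had 0, 2.43 and 7.99 normalised reads in Cry2 light, against 5.22, 1.41 and 0 in Cry2 dark, and these groups overlapped. It had 2.63, 0.809 and 10.5 in mCherry light and no read in mCherry dark. Over a floor of 3 reads, HAND2 was at least 5.45-fold higher in mCherry light on 11 reads, and at least 2.01-fold without mCherry light c. This bound leaves out the counting error of the light reads. Only 1 library of the 24, mCherry light c, reached 10. Any difference of HAND2 in monoculture was not detectable at this depth. The antisense gene HAND2-AS1, which overlaps HAND2, was not analysed here.

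The RefSeq promoters (GRCh38.p14) of both HAND genes are shown because the pair differed so widely in level. Each sequence runs 5′ to 3′ along the gene's strand and begins 250 bases before the RefSeq start; bases that GENCODE 29 places inside the gene (37 for HAND1) are left out. Capitals mark a match to one of 3 motifs, searched on both strands over all 250 bases. The TCF/LEF motif was searched as CTTTGA. The GATA zinc finger motif was searched as AGATAA. The T-box motif was searched as AGGTGT.
HAND1 (chr5:154478265-154478477, minus strand): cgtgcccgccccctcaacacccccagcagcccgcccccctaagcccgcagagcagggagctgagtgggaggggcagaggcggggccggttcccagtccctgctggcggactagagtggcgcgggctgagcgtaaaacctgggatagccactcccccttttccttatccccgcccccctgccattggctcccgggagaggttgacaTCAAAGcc
HAND2 (chr4:173530230-173530479, minus strand): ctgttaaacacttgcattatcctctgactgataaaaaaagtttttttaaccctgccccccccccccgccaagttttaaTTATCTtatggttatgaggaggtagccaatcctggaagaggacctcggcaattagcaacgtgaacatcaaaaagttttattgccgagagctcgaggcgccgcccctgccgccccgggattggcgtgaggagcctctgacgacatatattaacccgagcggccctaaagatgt
HAND1 holds a TCF/LEF match on the other strand, 45 to 40 bases before its start, and HAND2 holds a GATA match on the other strand, 172 to 167 bases before its start. Of the 35116 promoters in the table, 11.2% hold the TCF/LEF motif, 9.17% the GATA motif and 9.57% the T-box motif. The table held 6 of the 10 genes; GATA6 had no match to the 3 motifs, and ISL1 had a GATA match 31 to 26 bases before its start. A match is a run of letters and not a binding site.

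FOXF1 (ENSG00000103241; chr16:86510527-86515418, plus strand) was all but silent outside the illuminated engineered cells. It had 739.2, 731.7 and 834.9 normalised reads in Cry2 light, against 1.31, 0 and 0 in Cry2 dark. With 1 read in the dark group the ratio was 1647-fold, with an exact 95% counting interval of 295 to 65067 (log2 change 9.18 ± 0.52 SE, limma adjusted p = 5.17e-10). The 3 mCherry light libraries were close to each other, at 605.0, 610.5 and 580.9, and mCherry dark had 3.42, 3.72 and 0.791. FOXF1 was 226-fold higher in mCherry light (log2 change 7.49 ± 0.55, limma adjusted p = 1.8e-08).

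ISL1, a LIM homeodomain factor (ENSG00000016082; chr5:51383391-51394738, plus strand), rose to an intermediate level. It had 96.8, 69.7 and 94.9 normalised reads in Cry2 light, against 1.31, 1.41 and 0 in Cry2 dark. The ratio was 92.8-fold on 2 dark reads, with an exact 95% counting interval of 25.5 to 770 (log2 change 5.62 ± 0.63 SE, limma adjusted p = 1.6e-06). In co-culture it had 87.7, 91.4 and 61.7 in mCherry light, against 3.42, 0.930 and 9.49 in mCherry dark, 17.4-fold higher (log2 change 4.16 ± 0.78, limma adjusted p = 0.000312) and 36.9-fold without mCherry dark library c. The groups did not overlap in either culture.

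NKX2-5 (ENSG00000183072; chr5:173232109-173235357, minus strand) stayed near the lower limit of the test. It had 26.2, 17.0 and 32.8 normalised reads in Cry2 light, against 14.4, 0 and 2.98 in Cry2 dark, 4.39-fold higher (log2 change 2.70 ± 0.80 SE, limma adjusted p = 0.00894). Without Cry2 dark replicate 1, which held 11 of the 13 dark reads, the fold was 17.3, with an exact 95% counting interval of 4.65 to 145. It had 30.7, 38.8 and 82.8 in mCherry light, against 1.71, 3.72 and 2.37 in mCherry dark, 19.5-fold higher (log2 change 3.75 ± 0.69, limma adjusted p = 0.000296). No dark library reached the lowest light library of its culture, but Cry2 dark replicate 1 came close, and mCherry light c stood well above its 2 companions.

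The sarcomere genes TNNT2 and MYL7 went opposite ways. MYL7 (ENSG00000106631; chr7:44138864-44141332, minus strand) was read in all 24 libraries. It had 320.3, 359.0 and 331.8 normalised reads in Cry2 light, against 96.6, 65.0 and 108.6 in Cry2 dark, 3.74-fold higher (log2 change 1.92 ± 0.26 SE, limma adjusted p = 1.12e-05). It had 227.1, 270.9 and 246.8 in mCherry light, against 73.6, 54.0 and 82.3 in mCherry dark, 3.55-fold higher (log2 change 1.83 ± 0.26, limma adjusted p = 2.78e-05). Light and dark libraries did not overlap in either culture.

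TNNT2 (ENSG00000118194; chr1:201359008-201377762, minus strand) was read in the dark and nearly lost under light. It had 6.33, 8.10 and 3.55 normalised reads in Cry2 light, against 330.3, 349.2 and 269.4 in Cry2 dark, 52.8-fold lower (log2 change -5.55 ± 0.27 SE, limma adjusted p = 8.61e-11). It had 7.89, 1.62 and 3.01 in mCherry light, against 210.6, 294.0 and 253.9 in mCherry dark, 60.6-fold lower (log2 change -5.79 ± 0.34, limma adjusted p = 1.38e-09). Every illuminated engineered library lay under 10, and every dark engineered library over 200.

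TNNT2 reads are uncertain at one end. GENCODE 29 places the 3′ part of LAD1, a basement membrane filament gene on the same strand (chr1:201373244-201399915), over 4519 bp of TNNT2, with 81 exonic bases in common, so reads there cannot be assigned between them. LAD1 averaged 78.7 ± 17.9 normalised reads in Cry2 light and 1558 ± 85.3 in Cry2 dark (SD, n = 3 each; log2 change -4.31 ± 0.13 SE, limma adjusted p = 2.4e-13). It averaged 64.1 ± 21.4 in mCherry light and 1566 ± 31.3 in mCherry dark (log2 change -4.64 ± 0.16, limma adjusted p = 4.95e-12). TNNT2 equalled 7.62% of LAD1 in Cry2 light and 20.3% in Cry2 dark. The part of LAD1 reads in the TNNT2 value was not tested.

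**Figure D3:**
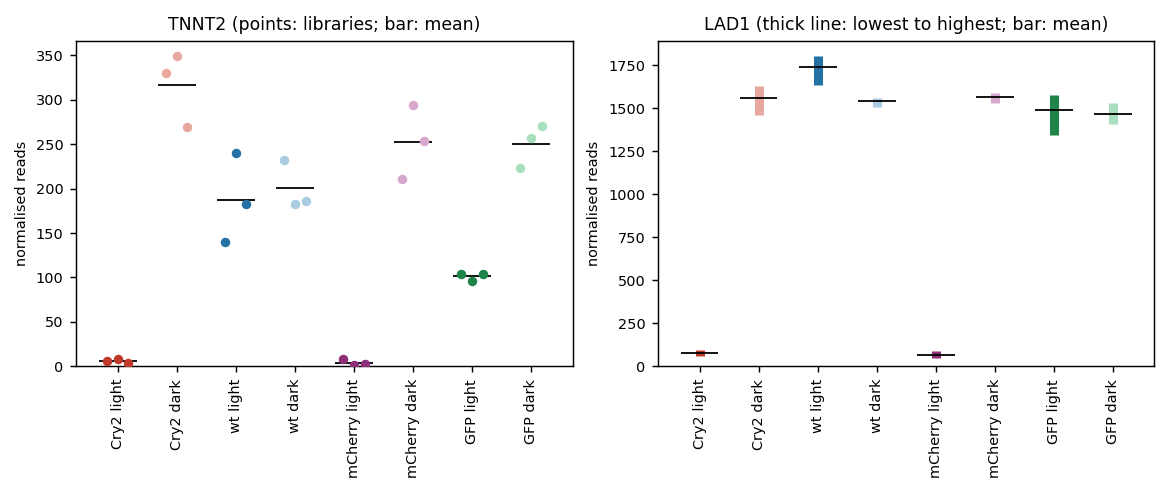
Normalised reads of TNNT2 in every library (left; bar, mean of 3) and of LAD1, which overlaps it on the same strand (right; thick line, lowest to highest library; bar, mean). Both are lowest in Cry2 light and mCherry light; in GFP light TNNT2 averages 101.2 against 250.1 in GFP dark while LAD1 averages 1492 against 1465.

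The promoters of the contractile pair are shown because the 2 genes moved in opposite directions; they are drawn as above, with 82 bases of TNNT2 left out as inside the GENCODE gene.
MYL7 (chr7:44141333-44141582, minus strand): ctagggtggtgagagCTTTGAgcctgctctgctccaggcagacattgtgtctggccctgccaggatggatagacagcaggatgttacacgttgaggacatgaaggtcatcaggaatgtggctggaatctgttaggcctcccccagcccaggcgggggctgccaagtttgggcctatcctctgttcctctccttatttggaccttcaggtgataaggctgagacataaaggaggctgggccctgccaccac
TNNT2 (chr1:201377763-201377930, minus strand): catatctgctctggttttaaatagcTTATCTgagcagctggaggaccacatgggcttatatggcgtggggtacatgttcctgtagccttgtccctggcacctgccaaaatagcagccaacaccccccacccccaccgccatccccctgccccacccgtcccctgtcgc
MYL7 holds a TCF/LEF match 235 to 230 bases before its start, and TNNT2 holds a GATA match on the other strand, 225 to 220 bases before its start. These are descriptions of the letters in each window.

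Compared per kb of exon, which allows levels to be set between genes, the order in Cry2 light was GATA6 at 2488 ± 44.3, HAND1 at 1078 ± 175, GATA4 at 1022 ± 26.9, MYL7 at 231.2 ± 13.6, FOXF1 at 218.6 ± 16.4, ISL1 at 30.2 ± 5.26, NKX2-5 at 12.1 ± 3.79 and GATA5 at 6.90 ± 1.51 normalised reads per kb (SD, n = 3). HAND2 at 0.964 ± 1.14 and TNNT2 at 0.826 ± 0.316 came last. Neighbours whose libraries overlapped were HAND1 and GATA4, MYL7 and FOXF1, NKX2-5 and GATA5, and HAND2 and TNNT2; the other neighbours did not overlap. In mCherry light the order was GATA6 at 2546 ± 265, GATA4 at 993.2 ± 76.7, HAND1 at 977.2 ± 171, FOXF1 at 170.3 ± 4.48, MYL7 at 170.3 ± 15.1, ISL1 at 27.9 ± 5.61, NKX2-5 at 24.2 ± 13.4, GATA5 at 9.51 ± 2.06, HAND2 at 1.29 ± 1.44 and TNNT2 at 0.575 ± 0.454. There HAND1 overlapped with GATA4, MYL7 with FOXF1, NKX2-5 with ISL1, and HAND2 with TNNT2. In Cry2 dark the order was led by MYL7 at 61.8 ± 15.5 and TNNT2 at 43.6 ± 5.75, and the 8 regulators averaged 2.76 or less.

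No difference between sorted and monoculture engineered cells was called for these genes. In mCherry light against Cry2 light, 0 of 9 were called higher or lower in limma, where 0.241% of all features were called higher and 0.482% lower, and 2664 features had an unadjusted p under 0.05. The largest of these log2 differences in limma were 0.89 ± 0.77 SE for NKX2-5 (adjusted p = 0.653) and -0.57 ± 0.32 for TNNT2 (adjusted p = 0.455). Next came GATA5 at 0.44 ± 0.61 (adjusted p = 0.802) and MYL7 at -0.44 ± 0.26 (adjusted p = 0.487). GATA6, GATA4 and HAND1 differed by 0.03 ± 0.61, -0.04 ± 0.55 and -0.14 ± 0.61. A p above the threshold does not show that the levels were alike, and culture, sorting and library set cannot be told apart in this comparison. Without mCherry light library a, TNNT2 was called lower in mCherry light (log2 difference -1.05, adjusted p = 0.0132).

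The size of the light effect itself was compared between the cultures, each against its own dark group. Again 0 of 9 genes were called in limma, beside 0.0246% of features called higher and 0.0394% lower (1018 features had an unadjusted p under 0.05; over all features edgeR called 5 higher and 3 lower, and limma 5 and 8). FOXF1 came nearest, with a light effect smaller by 1.70 ± 0.76 SE on the log2 scale in mCherry than in Cry2 cells (adjusted p = 0.954). In the dark groups behind it, mCherry dark had 9 reads of FOXF1 and Cry2 dark had 1.

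Light alone did not bring any of these genes past the threshold in wild-type monocultures. In wt light against wt dark, 0 of 9 were called in limma; 0.0309% of all features were called higher and 0.0411% lower, with 2559 at an unadjusted p under 0.05, while edgeR called 47 features. HAND1 had no read in any of the 6 wt libraries. TNNT2 had 140.1, 239.9 and 182.2 normalised reads in wt light, against 232.5, 183.0 and 186.3 in wt dark, and these groups overlapped (log2 change -0.12 ± 0.27 SE, limma adjusted p = 0.871). MYL7 had 26.8, 25.7 and 38.4 in wt light, against 28.9, 34.9 and 47.2 in wt dark, which also overlapped (log2 change -0.27 ± 0.26, limma adjusted p = 0.66). GATA5 had 13.8, 1.90 and 2.40 in wt light, against 4.13, 7.47 and 7.45 in wt dark, with 1 light library above and the other 2 below all dark ones. GATA4, GATA6, ISL1, NKX2-5 and FOXF1 averaged at most 2.49 in either group.

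**Figure D4:**
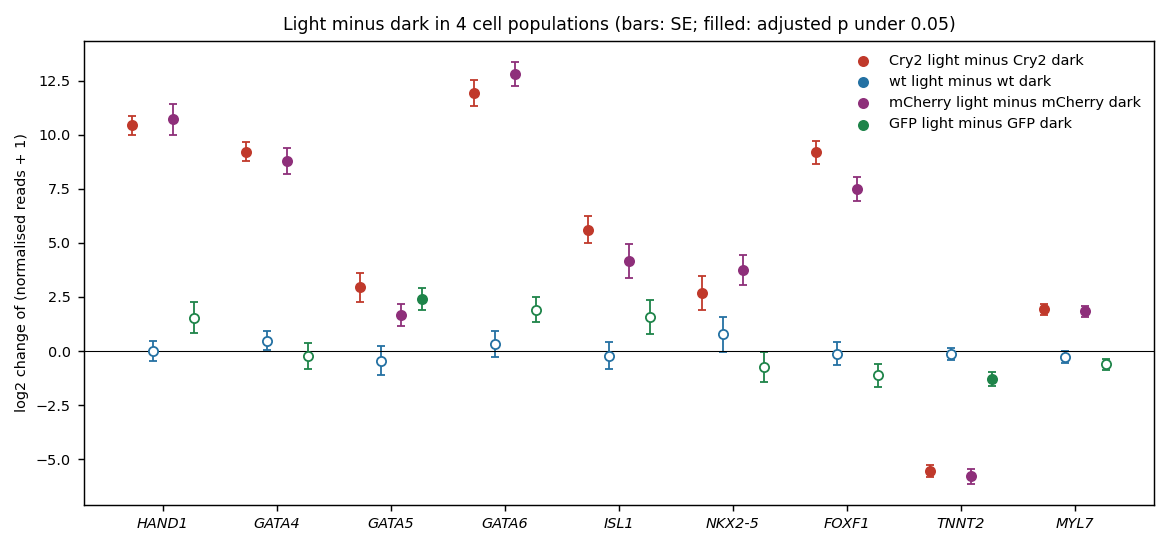
Log2 change of (normalised reads + 1), light minus dark, for the 9 genes tested, in Cry2 (red), wt (blue), mCherry (purple) and GFP (green) cells; bars are SE and filled points passed an adjusted p of 0.05 in limma. Red and purple points are filled for all 9 genes, no blue point is filled, and green points are filled for GATA5 (2.40) and TNNT2 (-1.29).

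The light effect differed between engineered and wild-type monocultures for 8 of the 9 genes when that difference was tested (limma, monoculture; 22.8% of all features were called higher and 25.0% lower). NKX2-5 was the exception, with a difference of 1.93 ± 1.13 SE on the log2 scale (adjusted p = 0.179) that turned to -0.83 in edgeR (adjusted p = 0.604) and was called without Cry2 dark replicate 1 (2.91, adjusted p = 0.0247). GATA5 differed by 3.40 ± 0.95 (adjusted p = 0.00795) and TNNT2 by -5.43 ± 0.38 (adjusted p = 1.38e-08). In co-culture the difference between mCherry and GFP cells was called for 7 of the 9 (19.5% of all features higher and 21.0% lower). ISL1, at 2.59 ± 1.10 (adjusted p = 0.0744), and GATA5, at -0.75 ± 0.72 (adjusted p = 0.448), were not called. Without mCherry dark c or GFP dark a, ISL1 was called (3.21, adjusted p = 0.0351, and 3.29, adjusted p = 0.0256). Of the 9 genes, 7 in monoculture and 6 in co-culture passed the filter only through the illuminated engineered libraries. They are high there, so these counts support nothing about the genes as a group. HAND1, counted in both cultures, was not called by edgeR in either.

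Wild-type cells sorted from illuminated co-culture held more GATA5 and less TNNT2 than those from dark co-culture; GATA6, HAND1 and the others did not pass the test. Thus 1 of the 9 genes was called higher and 1 lower in GFP light against GFP dark, beside 2.39% of all features higher and 2.21% lower. GATA5 had 12.8, 8.48 and 17.5 normalised reads in GFP light, against 0.885, 0.898 and 3.58 in GFP dark, and the groups did not overlap. It was 7.23-fold higher (log2 change 2.40 ± 0.51 SE, limma adjusted p = 0.0129), on 39 reads in GFP light and 7 in GFP dark; without GFP dark c, which held 5 of those 7 reads, the ratio was 14.0-fold with an exact 95% counting interval of 3.61 to 119. Without GFP light c, GFP dark a or GFP dark b the adjusted p was 0.065, 0.0598 or 0.064. GATA5 in GFP light a, b and c was 51.8%, 34.3% and 70.9% of its mean in mCherry light, and GATA6 was 0.00749%, 0.0657% and 0.0671% of its own.

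TNNT2 had 103.8, 96.1 and 103.7 normalised reads in GFP light, against 223.0, 256.8 and 270.5 in GFP dark, 2.47-fold lower and without overlap. The log2 change was -1.29 ± 0.34 SE (limma adjusted p = 0.0435; edgeR on recovered reads, adjusted p = 0.00096). The limma call was lost when any co-culture library other than those of mCherry light was left out, with adjusted p between 0.0601 and 0.164 and log2 changes of -1.37 to -1.24. LAD1 averaged 1492 ± 127 in GFP light and 1465 ± 60.6 in GFP dark (log2 change 0.02 ± 0.16, limma adjusted p = 0.974), and TNNT2 equalled 6.78% of LAD1 in GFP light and 17.1% in GFP dark.

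GATA6 had 0.752, 6.59 and 6.74 normalised reads in GFP light, against 0, 0.898 and 0 in GFP dark, and the groups overlapped. On 13 reads against 1, the ratio was 15.1-fold with an exact 95% counting interval of 2.27 to 642 (log2 change 1.92 ± 0.57 SE, limma adjusted p = 0.0749); without GFP light a it was called (log2 change 2.63, adjusted p = 0.00648). HAND1 had 0.752, 13.2 and 0 in GFP light and no read in GFP dark. Nearly all of its reads were in library b, where HAND1 stood at 0.776% of its mean in mCherry light. The puromycin resistance transcript of the engineered line stood at 0.0591% of its own mCherry light mean in that library. It stood at 0.1795% in GFP dark c, which had no read of HAND1. The source of the HAND1 reads in GFP light was not tested. GATA4 had 0.752, 11.3 and 4.04 in GFP light, against 7.08, 2.69 and 5.01 in GFP dark, and it too was highest in library b. Neither HAND1 nor GATA4 was called (limma adjusted p = 0.301 and 0.904).

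The remaining genes did not pass the test in GFP cells. ISL1 had 3.01, 10.4 and 9.43 normalised reads in GFP light, against 0, 0.898 and 8.59 in GFP dark (limma adjusted p = 0.334). MYL7 had 32.3, 26.4 and 55.2 in GFP light, against 56.6, 53.9 and 56.5 in GFP dark (limma adjusted p = 0.26). FOXF1 had 2 reads in GFP light and 8 in GFP dark, and NKX2-5 had 6 in GFP light and 8 in GFP dark. Each of these pairs of groups overlapped. When the light effect in GFP cells was set against that in wt monocultures, 0 of the 9 were called in limma (1.41% of all features higher and 0.886% lower; 2734 at an unadjusted p under 0.05). GATA5 differed by 2.85 ± 0.86 SE on the log2 scale (adjusted p = 0.0939), and TNNT2 by -1.17 ± 0.45 (adjusted p = 0.224; called by edgeR, adjusted p = 0.0201).

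Without light, engineered monocultures held more GATA4 and MYL7 than wild-type monocultures. These 2 of the 9 were called higher and 0 lower in Cry2 dark against wt dark (2.27% and 1.33% of all features). MYL7 had 96.6, 65.0 and 108.6 normalised reads in Cry2 dark, against 28.9, 34.9 and 47.2 in wt dark, 2.44-fold higher without overlap (log2 change 1.26 ± 0.26 SE, limma adjusted p = 0.0134). GATA4 had 7.83, 2.83 and 11.9 in Cry2 dark, against 1 read in each wt dark library, a ratio of 5.81-fold with an exact 95% counting interval of 1.66 to 31.1 (log2 change 1.73 ± 0.44, limma adjusted p = 0.043). Without wt dark replicate 1 and Cry2 dark replicate 3, the libraries of low GC content and low RNA integrity, neither was called (adjusted p = 0.243 for GATA4 and 0.175 for MYL7). Leaving out Cry2 dark replicate 1, Cry2 dark replicate 3 or wt dark replicate 1 alone also ended both calls. The GATA4 call was lost as well without any 1 of the Cry2 light libraries or of the other wt dark libraries (adjusted p between 0.077 and 0.12), and NKX2-5 was called higher without Cry2 dark replicate 2 (log2 change 2.97, adjusted p = 0.0418). In mCherry dark against GFP dark 0 of 9 were called in limma and 0 in edgeR (0.453% of all features higher and 0.345% lower; 1098 at an unadjusted p under 0.05). MYL7 there had 73.6, 54.0 and 82.3 in mCherry dark, against 56.6, 53.9 and 56.5 in GFP dark.

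Genes that neighbour these regulators were read with them. GATA6-AS1, whose antisense transcript overlaps GATA6, averaged 1325 ± 116 normalised reads in Cry2 light and 0.435 ± 0.754 in Cry2 dark (SD, n = 3 each; log2 change 9.97 ± 0.45 SE, limma adjusted p = 4.1e-11). The library kit keeps strand, but no source used here gives the setting with which reads were counted, so those of GATA6 and GATA6-AS1 may not be separable. FENDRR, a long non-coding RNA that starts 1428 bp from FOXF1 on the other strand, averaged 28.0 ± 10.5 in Cry2 light and had no read in Cry2 dark (at least 20.0-fold higher; log2 change 4.79 ± 0.55, limma adjusted p = 2.12e-06).

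Over the 24 libraries, the genes whose log2 levels ran most like these were HOXB3 and EVX1 for HAND1 (Pearson r = 0.994 and 0.993), BMP1 and DLC1 for GATA4 (0.989 each), SERPINE2 and HOXB5 for GATA6 (0.992 each), and TMEM74B and GNE for FOXF1 (0.986 and 0.985). For TNNT2 they were GCNT2 and TXNRD2 (0.992 and 0.991), for MYL7 C6orf223 and SLC16A5 (0.966 and 0.962), for ISL1 HSD17B7 and TBXAS1 (0.950 and 0.939), and for NKX2-5 TMEM263 and C11orf96 (0.932 and 0.921). Of the genes given, GATA5 had the lowest values, with LIPH and POLR3B at 0.880 and 0.839. It averaged at most 24.7 normalised reads in any group. How far counting error at such levels lowers r was not tested. These values describe the libraries, which share 1 large difference between the 6 illuminated engineered libraries and the other 18.

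Other genes of the heart field and of related tissues were read from lists, whose counts stand beside the shares over all features: 28.1% higher and 30.4% lower in Cry2 cells, 27.2% and 28.7% in mCherry cells and 2.39% and 2.21% in GFP cells, with a median log2 change of -0.01 in each. Of 15 cardiac transcription regulators tested, 7 were called higher and 3 lower in Cry2 light, and 7 and 2 in mCherry light; the median log2 change was 0.73 in Cry2 and 0.21 in mCherry cells. Of these 15, 4 in monoculture and 3 in co-culture passed the filter only through the illuminated engineered libraries. TBX3, a T-box repressor of the conduction system and of early mesoderm, averaged 4432 ± 268 normalised reads in Cry2 light and 0.870 ± 1.51 in Cry2 dark (SD, n = 3 each; log2 change 11.49 ± 0.48 SE, limma adjusted p = 1.39e-11). MESP1, the factor of nascent cardiac mesoderm, averaged 1253 ± 109 in Cry2 light and 0.967 ± 0.839 in Cry2 dark (log2 change 9.43 ± 0.60, limma adjusted p = 2.22e-09). HOPX, a cofactor without DNA binding, averaged 376.1 in Cry2 light and had no read in Cry2 dark. IRX4, a ventricular factor, was called lower, at 11.2 ± 2.41 in Cry2 light and 82.9 ± 25.5 in Cry2 dark (log2 change -2.76 ± 0.32, limma adjusted p = 2.24e-06). TBX5, TBX20, TBX1, TBX2 and TBX18, the T-box factors of later heart tissue, did not reach the filter in monoculture or in co-culture. Of these, TBX20 averaged 16.8 ± 8.62 in Cry2 light and had no read in Cry2 dark (SD, n = 3 each). It averaged 14.1 ± 6.65 in mCherry light and 2.10 ± 2.21 in mCherry dark. MEF2C, MYOCD and SRF were not called in either culture.

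**Figure D5:**
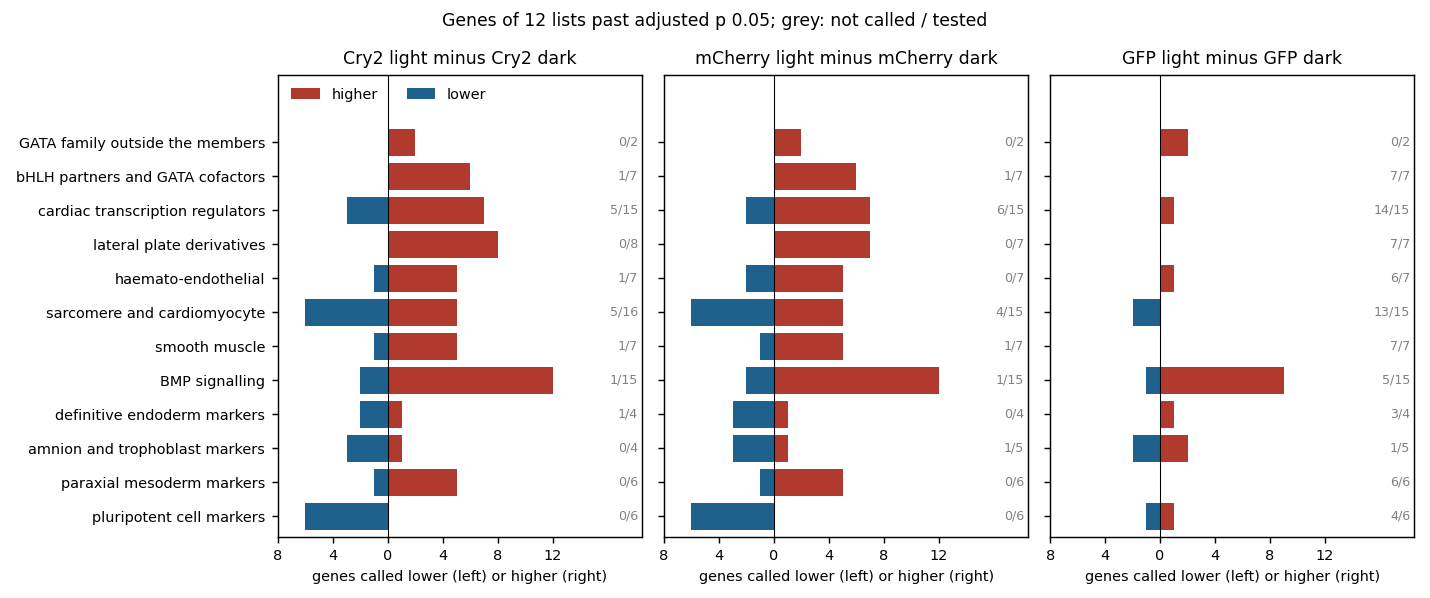
Number of genes called lower (left of 0) and higher (right of 0) in 12 lists, for light minus dark in Cry2, mCherry and GFP cells; grey figures give genes not called of genes tested. The tested lateral plate genes, most of which passed the filter only through the illuminated engineered libraries, are called higher in Cry2 (8) and mCherry (7) cells and none in GFP cells, the sarcomere list splits 5 higher and 6 lower in Cry2 and in mCherry cells, and BMP signalling is the list with most calls in GFP cells (9 higher, 1 lower).

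Of the genes of lateral plate derivatives, 8 of 8 tested were called higher in Cry2 light and 7 of 7 in mCherry light, beside 28.1% and 27.2% of all features. However, 5 of the 8 and 4 of the 7 passed the filter only through the illuminated engineered libraries, where they are high, so these counts support nothing about the list. ALDH1A2, the retinoic acid synthesis enzyme, averaged 10910 ± 724 normalised reads in Cry2 light and 7.14 ± 3.25 in Cry2 dark (log2 change 10.47 ± 0.41 SE, limma adjusted p = 6.41e-12). PDGFRA, a receptor of mesodermal cells, averaged 4725 ± 348 in Cry2 light and 23.9 ± 2.95 in Cry2 dark (log2 change 7.57 ± 0.37, limma adjusted p = 9.53e-11). OSR1 and TBX4 averaged 179.8 and 93.1 in Cry2 light and 1.37 and 0.907 in Cry2 dark.

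In the sarcomere list, 5 of 16 genes tested were called higher and 6 lower in Cry2 light (median log2 change 0.10), and of 15 in co-culture, 5 and 6 in mCherry light (0.11). These shares are near those over all features (28.1% higher and 30.4% lower in Cry2 light) and are no result about the list. MYL4, the atrial essential light chain, averaged 130.2 ± 35.1 normalised reads in Cry2 light and 1.78 ± 1.98 in Cry2 dark (log2 change 5.81 ± 0.70 SE, limma adjusted p = 3.44e-06), and MYH6, the alpha myosin heavy chain, 88.2 ± 12.1 in Cry2 light and 12.4 ± 6.98 in Cry2 dark (log2 change 2.87 ± 0.52, limma adjusted p = 0.000223). RYR2, the calcium release channel, averaged 19.2 ± 6.67 in Cry2 light and 270.3 ± 37.3 in Cry2 dark (log2 change -3.80 ± 0.29, limma adjusted p = 2.21e-08), and TNNI3, cardiac troponin I, 65.3 ± 9.28 in Cry2 light and 311.6 ± 36.3 in Cry2 dark (log2 change -2.24 ± 0.20, limma adjusted p = 9.65e-08). MYH7, MYBPC3 and NPPA did not reach the filter, and MYL2, CSRP3 and PLN were not analysed here. In GFP light TTN and TPM1 were called lower of 15 tested.

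Of 7 partners of the HAND and GATA proteins, 6 were called higher and 0 lower in Cry2 light and in mCherry light, beside 28.1% and 27.2% of all features called higher; 1 of the 7 in monoculture and 2 in co-culture passed the filter only through the illuminated engineered libraries. TWIST1 averaged 70.4 ± 9.18 normalised reads in Cry2 light and 5.24 ± 2.44 in Cry2 dark (log2 change 3.59 ± 0.51 SE, limma adjusted p = 2.07e-05), and ZFPM2, the FOG2 cofactor of GATA4, 100.2 ± 16.7 in Cry2 light and 9.24 ± 4.52 in Cry2 dark (log2 change 3.41 ± 0.51, limma adjusted p = 3.31e-05). Of 15 BMP pathway genes, 12 were called higher and 2 lower in Cry2 light and likewise in mCherry light, and 9 higher and 1 lower in GFP light, where 2.39% of all features were called higher. BMP4, a ligand that acts upstream of HAND1 and GATA4 in mouse mesoderm, averaged 15958 ± 431 in Cry2 light and 203.4 ± 28.9 in Cry2 dark (log2 change 6.30 ± 0.15, limma adjusted p = 2.96e-14). ID1, a direct BMP target, averaged 12830 ± 1583 in GFP light and 1563 ± 191 in GFP dark (log2 change 3.04 ± 0.38, limma adjusted p = 0.000206). BMP2 was called lower in GFP light, at 47.4 ± 8.92 against 112.3 ± 25.5 in GFP dark (log2 change -1.22 ± 0.20, limma adjusted p = 0.00201).

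GATA4, GATA6, HAND1 and ISL1 are shared with other tissues, so markers of those tissues were read beside them. Of 7 definitive endoderm markers in the table, 4 were tested in each culture; 1 (CER1) was called higher and 2, AFP among them, lower in Cry2 light, and 1 higher and 3 lower in mCherry light, while SOX17, FOXA1 and HNF4A did not reach the filter. Their summed level was 2284 to 2544 in Cry2 light and 137 to 168 in Cry2 dark, nearly all of it CER1, which averaged 2388 ± 134 in Cry2 light. Of 7 amnion and trophoblast markers, GATA3 was called higher and GABRP, KRT7 and IGFBP3 lower of 4 tested in Cry2 light, and the sum was 141 to 199 in Cry2 light and 1332 to 1518 in Cry2 dark. In GFP light TFAP2A and GATA3 were called higher and GABRP and KRT7 lower of 5 tested. Of 7 paraxial mesoderm markers, 5 of 6 tested were called higher (4 of the 6 passed the filter only through Cry2 light) and TCF15 lower in Cry2 light, and their sum of 35769 to 38713 in Cry2 light stood beside 510 to 541 in Cry2 dark; MSGN1 alone averaged 12059 ± 599 in Cry2 light. Of 9 blood and endothelial genes, 5 of 7 tested were called higher and 1 lower, among them LMO2 at 5183 ± 302 in Cry2 light and 82.0 ± 12.7 in Cry2 dark, whereas CDH5, the endothelial cadherin, averaged 2.05 ± 2.07 in Cry2 light and 22.4 ± 5.00 in Cry2 dark. Of 7 smooth muscle genes, 5 were called higher and MYH11 lower, and the 4 skeletal muscle genes did not reach the filter. Over all features, 28.1% were called higher and 30.4% lower in Cry2 light, 27.2% and 28.7% in mCherry light, and 2.39% and 2.21% in GFP light. The endoderm counts, over 4 genes, are no result about that list. In monoculture, 1 amnion gene and 1 blood and endothelial gene passed the filter only through Cry2 light. How far cells of these other kinds contribute to the values of GATA4, GATA6, HAND1 and ISL1 was not tested.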

How the data were processed

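Per the submitters' processing notes, DESeq, HTSeq, STAR, Bowtie2, cutadapt and FastQC were used; no source used here gives their versions. These notes name GRCh38, while the authors' deposited sample table names hg19; positions come from GENCODE 29 (GRCh38), matched on Ensembl identifiers. The deposited values are a normalised signal per gene and library. Multiplied by each library's own factor, 100.0% of its values were whole reads within 0.01. For monoculture libraries the deposited sample table also gave an RNA integrity score, read counts, and the percent of aligned reads and of GC; its co-culture entries, tied by no label to single samples, gave only each column's group. Monoculture genotype tags contradict the titles; titles were used, and construct reads go with them: the puromycin transcript had no read in wt and 1458 to 2295 in Cry2 monocultures.

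The 12 monoculture and 12 co-culture libraries were each fitted with limma-trend 3.58.1 (R 4.3.3) on log2(value + 1), features at 10 or more in at least 3 libraries, group means only; comparisons across cultures used all 24. EdgeR 4.0.16 on recovered reads was an alternative. Log2 changes carry the pseudocount and understate changes of low genes; folds are ratios of means, or of depth-scaled reads where a group had 1 to 3 reads, which intervals cover for counting error only. Against a group without reads the floor is 3 reads over the group. Libraries within groups differed by 4.2 to 71.1 times counting noise (24 pairs), more than counting alone gives for 1 library sequenced again. Separate preparations of the same RNA or culture are not excluded by this. The highest values were those of mCherry light a against b and c (62.4 and 71.1, with 13.7 between b and c). Next came wt light replicate 2 against 1 and 3 (51.6 and 42.6, with 5.4 between 1 and 3). The steps were tested on simulated data in which only genes well above the filter were changed, so low genes were not covered.

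The 10 genes and the 14 lists (132 genes) were chosen with earlier results of these data known. Named are all 10 genes, and of each list up to 4 called genes per direction with the largest log2 change; for likeness, the 2 genes with the highest Pearson r and a group mean of at least 50. Some genes of the lists are not reported here.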

Additional observations from a re-analysis of the deposited data

Results flagged for a closer look

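The response to light differed between engineered and wild-type cells in 15 tests of these genes, as a difference of log2 changes in limma. In monoculture, Cry2 minus wt, it was 10.44 for HAND1, 8.75 for GATA4, 3.40 for GATA5, 11.59 for GATA6, 5.84 for ISL1, 9.30 for FOXF1, 2.20 for MYL7 and -5.43 for TNNT2. In co-culture, mCherry minus GFP, it was 9.17 for HAND1, 9.04 for GATA4, 10.89 for GATA6, 4.48 for NKX2-5, 8.61 for FOXF1, 2.44 for MYL7 and -4.50 for TNNT2. Most of the genes passed the filter only through the illuminated engineered libraries, so the number of tests supports nothing about them as a group.

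HAND1 had no read in wild-type monocultures or in GFP dark, so its differences depend on the pseudocount, and in edgeR its adjusted p was 1 in both cultures.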

How the results depend on the processing

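Over 2255 recomputed values of single genes, 2212 kept their side of the threshold, 33 lost a call and 10 gained one, none of them with a change of sign. Among the 2212, 32 values that were not called turned sign, among them the NKX2-5 difference of light effects in monoculture (-0.83 in edgeR) and GATA4 in GFP light against GFP dark (0.05 in edgeR). In Cry2 dark against wt dark, the 2 genes called higher became 1 with a pseudocount of 5, 1 without a filter, 1 in the fit of all 24 libraries and 0 without the monoculture libraries of low GC content or RNA integrity; leaving out 1 library gave 0 to 3. In GFP light against GFP dark, the 1 gene called lower (TNNT2) became 0 with a pseudocount of 0.5 and 0 without a filter; leaving out 1 library gave 0 to 1. The 1 gene called higher there (GATA5) became 0 with a filter at 50; leaving out 1 library gave 0 to 2. Counts of 0 became 1 for lower calls in mCherry light against Cry2 light without mCherry light a (range 0 to 1), for lower calls in the wild-type light effect between cultures in edgeR (TNNT2), and for higher calls there without wt light replicate 1 (GATA5, log2 difference 3.59, adjusted p = 0.0162; range 0 to 1). The cause was not tested. ISL1 was called in the co-culture difference of light effects with a pseudocount of 5 (2.51, adjusted p = 0.00317) and in the fit of all 24 libraries (adjusted p = 0.0474). Over all features limma and edgeR called 14 and 47 in wt light against wt dark, 147 and 71 in mCherry light against Cry2 light, and 13 and 8 in the engineered light effect between cultures.

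With the replicate block, 8 genes stayed called higher and 1 lower in Cry2 light against Cry2 dark, and no call on these genes changed in monoculture; same-numbered libraries did not deviate together (r of -0.061 to 0.058 over 18 pairs, 0 above 0.1). No paired analysis was possible in co-culture because the columns carry no replicate number. Each of the 8 regulators had under 10 reads in at least 1 group, which limits its folds; TNNT2 and MYL7 did not.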
